A study of Homo sapiens with 3 samples.

Results

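Untreated sarcospheres of the human osteosarcoma line MNNG/HOS were described from their own array, 1 of the 3 arrays of the study, by ranking 14836 named genes on signal intensity. Sarcospheres are floating spheres that form when sarcoma cells grow in serum-free medium. The untreated cells grew for 5 days in serum-free DMEM/F12 medium with no addition, and the suspended spheres were then taken for total RNA. The other 2 cultures had the same line, medium and duration, one with 4 ng/mL of TGF-beta1 and one under hypoxia, the oxygen level of which the labels do not state. Each culture was hybridised once to a NimbleGen one-colour (Cy3) expression array, so there is 1 array per group, no replicate error, and no test. One label field spells the line MNNG/HOSC. All 3 groups are spheres of 1 cell line, and no adherent or serum-grown culture was among them, so the data do not tell which levels are particular to spheres.

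Osteosarcoma is a malignant tumour of mesenchymal cells that make bone matrix. HOS is a line from such a tumour, and MNNG/HOS was derived from it by chemical transformation. In normal bone, RUNX2 and then SP7 direct osteoblast formation, fibrillar collagen is laid down, and alkaline phosphatase (ALPL), bone sialoprotein (IBSP) and osteocalcin (BGLAP) accompany mineralisation. The same mesenchymal precursors can give cartilage under SOX9, fat under PPARG and muscle under MYOD1 or related factors.

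A gene's intensity was the mean log2 of its features, printed here on the linear scale, and its percentile is the percentage of the named genes that it outranked on the untreated array. Intensity had a median of 409.6 over the named genes, with 116 at percentile 25, 1349.6 at percentile 75 and 3308 at percentile 90. Probes differ in how brightly they hybridise, so a percentile describes signal and is not a transcript number. No value in the table lies below 50 and there are no detection calls, so the order of genes close to 50 has no meaning. As a gauge of silent genes, the 126 olfactory receptor genes, which serve smell in the nasal epithelium, had a median of 66.5, and 95% of them lay under 188. This limit was exceeded by 9662 named genes, or 65.1%. A second gauge was brighter: 87 genes of other tissue-restricted families (taste and vomeronasal receptors, keratin-associated proteins, beta-defensins and late cornified envelope genes) had a median of 96.0, and 22 of them lay above the limit. A value above the limit is therefore not proof of a transcript. In what follows, bright means at or above percentile 75 and dim below percentile 25, and by construction each class holds 25.0% of the named genes.

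**Figure D1:**
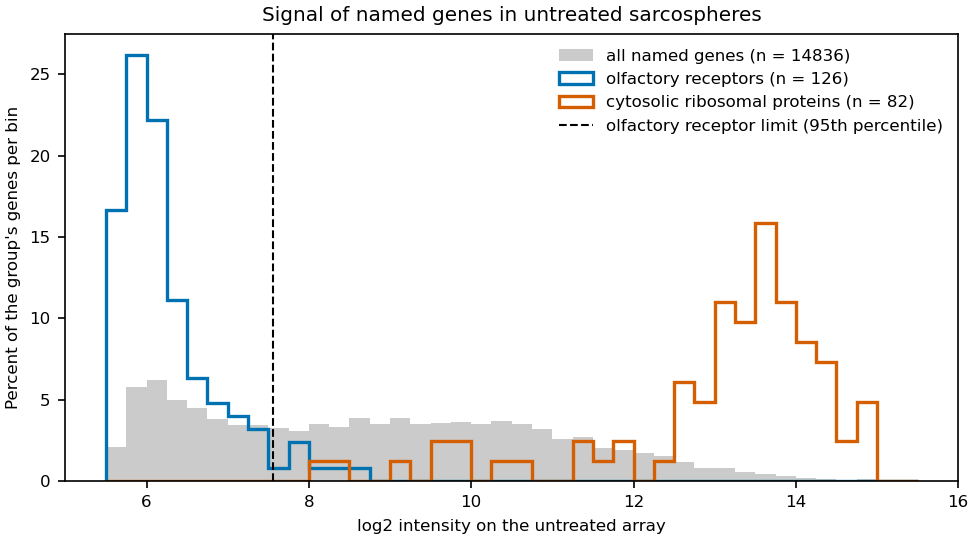
Histogram of log2 intensity on the untreated array, as the percent of each group's genes per bin, for all 14836 named genes (grey), 126 olfactory receptors (blue) and 82 cytosolic ribosomal proteins (orange). The olfactory receptors pile up at the dim end, with the dashed line at their 95th percentile, and the ribosomal proteins lie mostly at the bright end.

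The brightest named gene was COL6A2, a chain of type VI collagen, at 36066. The other main chains of that collagen were also among the 20 brightest, COL6A3 at 30783 and COL6A1 at 25442, as was PCOLCE, the enhancer of procollagen C-proteinase, at 30847. Cytoskeletal genes filled much of the rest: ACTG1 at 34989 and ACTB at 31580 encode the cytoplasmic actins, PFN1 and TMSB10 encode actin-monomer binders, ACTN1 an actin crosslinker, MYO1C a myosin motor, and VIM, at 29664, the intermediate filament of mesenchymal cells. PKM, which makes pyruvate in the last step of glycolysis, ranked next to COL6A2 at 35646. Ribosomal protein genes, among them RPL7A, RPS18, RPL13 and RPL29, and the small acidic nuclear proteins PTMA and PTMS made up nearly all of the remainder. The exception was BBS5, a component of the complex that carries cargo to cilia, at 33816, measured by 1 feature. All 20 stood at or above percentile 99.5 on each of the 3 arrays. Actin and ribosomal protein genes have many near-identical copies in the genome, and whether the probes tell them apart was not tested.

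To show the sequence just before the start of bright and of dim genes, the 120 bases upstream of the annotated start were taken from the RefSeq promoter table (GRCh38.p14) for the 3 brightest genes. They are printed 5′ to 3′ on the gene's strand, with each CG dinucleotide in capitals.
COL6A2: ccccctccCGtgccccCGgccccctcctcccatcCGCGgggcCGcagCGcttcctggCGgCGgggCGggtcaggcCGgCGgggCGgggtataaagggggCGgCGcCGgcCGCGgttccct
PKM: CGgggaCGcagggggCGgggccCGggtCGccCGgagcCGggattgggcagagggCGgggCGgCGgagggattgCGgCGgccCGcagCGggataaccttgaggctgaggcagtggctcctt
ACTG1: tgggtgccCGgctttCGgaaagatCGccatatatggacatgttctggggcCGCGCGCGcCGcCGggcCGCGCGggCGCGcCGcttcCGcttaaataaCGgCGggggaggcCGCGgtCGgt
The COL6A2 stretch (chr21:46097992-46098111, plus strand) has 17 CG dinucleotides and 1 TATAAA, the PKM stretch (chr15:72231191-72231310, minus strand) has 14, and the ACTG1 stretch (chr17:81512800-81512919, minus strand) has 21. Of the liver, blood and endothelial marker lists, the dimmest member with a promoter in the table is shown for contrast: AHSG, a liver plasma protein, CD14, a monocyte receptor, and TIE1, an endothelial receptor.
AHSG: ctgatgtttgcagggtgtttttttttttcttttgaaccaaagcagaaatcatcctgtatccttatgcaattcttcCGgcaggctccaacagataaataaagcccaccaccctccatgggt
CD14: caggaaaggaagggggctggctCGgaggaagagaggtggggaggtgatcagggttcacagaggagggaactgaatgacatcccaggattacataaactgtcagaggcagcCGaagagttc
TIE1: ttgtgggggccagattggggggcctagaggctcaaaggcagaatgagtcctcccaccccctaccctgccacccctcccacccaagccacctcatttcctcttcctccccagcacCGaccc
AHSG (chr3:186612940-186613059, plus strand) has 1 CG dinucleotide in this stretch, CD14 (chr5:140633176-140633295, minus strand) has 2 and TIE1 (chr1:43300862-43300981, plus strand) has 1. Intensity was 50.6 for AHSG, 50.2 for CD14 and 62.6 for TIE1.

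The osteoblast programme was mixed: some regulators and matrix genes were bright, and several genes of mineralisation were dim. Of 26 measured osteoblast genes 9 were bright (34.6%) and 7 dim (26.9%), against 25.0% of all named genes for each. With a median percentile of 46.8, the list as a whole stood close to all named genes. RUNX2, the master regulator of the lineage, had an intensity of 988 (percentile 68.6; 68.6 to 74.3 over the 3 arrays). SP7, which acts after RUNX2, had 73.9 (percentile 12.9; 12.9 to 17.0), close to the olfactory receptor median. TWIST1, a mesenchymal factor known to hold back RUNX2 activity, stood at percentile 91.1. Among the other factors DLX5 stood at 72.2, with 48.7 to 72.2 over the 3 arrays, and DLX3 at 2.31. The factor group therefore held both ends of the range, with 4 of 10 bright and 2 dim.

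Matrix proteins of bone also split. SPARC (osteonectin), a collagen-binding glycoprotein, reached 5862 (percentile 95.6), and COL1A1, the main chain of bone collagen, 1715 (percentile 79.9; 67.2 to 79.9 over the 3 arrays). ENPP1, which makes the mineralisation inhibitor pyrophosphate, was bright at percentile 90.2. ALPL, which degrades pyrophosphate, was dim at 68.8 (percentile 10.6), and MEPE, a protein of osteocytes, was at 59.7 (percentile 5.38). Between these ends stood BGLAP at percentile 59.8, osteopontin (SPP1) at 53.04 and IBSP at 30.8. TNFRSF11B (osteoprotegerin), the secreted decoy that blocks osteoclast formation, was bright at percentile 88.9, as was the mesenchymal cadherin CDH11 at 80.2. CDH11 had 59.0 to 80.2 over the 3 arrays, so it was not bright on all of them.

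Markers of the sister lineages were mostly below the middle of the ranking. None of 15 measured cartilage genes was bright and 7 were dim (46.7%), where each class held 25.0% of all named genes. COL2A1, the collagen of cartilage, was the brightest of them at percentile 73.7, with SOX9 at 59.6, and ACAN, the core protein of aggrecan, stood at 12.7. Of 13 fat genes 1 was bright (7.69%), the widely used lipase gene PNPLA2 at 85.1, and 5 were dim (38.5%). PPARG stood at percentile 50.7, but between 21.3 and 51.0 over the 3 arrays, while the adipocyte products FABP4 at 10.99, ADIPOQ at 5.605 and PLIN1 at 1.80 were dim. Of 16 skeletal muscle genes 1 was bright (6.25%), the skeletal actin ACTA1 at percentile 98.5, and 8 were dim (50%). ACTA1 shares nearly all its coding sequence with the other actins, and cross-hybridisation was not tested. MYOD1 stood at 48.3 and MYOG at 27.1. Above the olfactory receptor limit were 40% of the cartilage, 46.2% of the fat and 37.5% of the skeletal muscle genes, against 65.1% of all named genes.

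The contractile list had 8 of 14 members bright and a median percentile of 87.3, against 25.0% of all named genes bright. The bright members were largely those used by many adherent cells, led by ACTN1 at 29550.5, CNN2 at 19505 and CNN3 at 9474, which encode actin-binding proteins. Genes tied to smooth muscle did not stand together. ACTA2 was at percentile 49.2, MYH11 at 22.8 and CNN1 at 3.54, and 3 of the 14 members were dim. Other smooth-muscle genes of the list were bright. CALD1 stood at 82.1, the features of TPM2 had 6995 and 4878, and those of MYL9 had 2512 and 8769. TAGLN stood at 40.1, but its 2 features differed by 2.02 on the log2 scale, so its place is uncertain. CNN1 moved between 3.54 and 41.6 over the 3 arrays.

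Mesenchymal genes were bright in 11 of 27 cases (40.7%) and dim in 6 (22.2%), against 25.0% of all named genes for each. Their median percentile was 70.1. VIM led the list, followed by the transcription factor FOXC2 at 7701 (percentile 97.2) and the calcium-binding protein S100A4 at 5790 (percentile 95.5). Regulators of epithelial-mesenchymal transition differed, with SNAI2 at percentile 88.8, ZEB1 at 72.2, SNAI1 at 70.1 and ZEB2 at 32.6, under the olfactory receptor limit. PRRX1, a limb mesenchyme factor, was at 28.2 and reached 58.0 on another of the 3 arrays. Surface proteins used to define mesenchymal stromal cells differed widely, with NT5E (CD73) at 86.5, CD44 at 65.9, and THY1 (CD90) at 14.6. The fibroblast protease FAP, at 5.81, was the dimmest member. N-cadherin, CDH2, stood at 75.1.

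Epithelial genes were bright less often than all named genes, 4 of 27 (14.8%) against 25.0%. Dim members numbered 9 (33.3%, against 25.0%), and 14 (51.9%) were above the olfactory receptor limit, against 65.1%. The bright members were the simple keratins KRT8 at 9761 (percentile 98.3) and KRT18 at 3604 (percentile 91.0), the junction protein plakoglobin (JUP, percentile 94.5) and desmoglein 2 (DSG2, percentile 79.8). None of the 6 measured epithelial regulators was bright and 3 were dim (50%). GRHL2 stood at percentile 23.1, ELF3 at 2.65 and the adhesion protein EPCAM at 26.4. KRT19 was near the lower limit of the table at an intensity of 51.5.

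Markers of other tissues were dim for the most part. In bulk RNA of 1 cell line, fewer cells with a transcript and less of it per cell cannot be told apart. Of 81 measured markers of nervous tissue, pigment cells, blood, vessels, liver and skeletal muscle, 54 were dim, 6 bright and 17 above the olfactory receptor limit, against 25.0% dim and 65.1% above the limit for all named genes. The median percentile was 18.3 for the 20 blood and immune genes, 20.8 for the 10 endothelial genes and 8.19 for the 13 liver genes. CD14 and CD3G, markers of monocytes and T cells, had intensities of 50.2 and 50.1. SPI1, the myeloid master factor, stood at percentile 10.4, the endothelial receptor KDR at 14.5, and the liver factor HNF4A at 1.999. The 2 bright members of the blood list were CD68, a lysosomal protein found in many cells, at 77.1, and GATA2 at 77.0. SERPINA1 (antitrypsin) was the 1 bright liver gene, at 78.0. In the neural list TUBB3, the neuronal tubulin, reached 9153 (percentile 98.1) and the filament gene NES 2436 (percentile 85.7), while GFAP and SOX10 were dim at 7.05 and 24.1. All 3 measured pigment-cell genes were dim, among them MLANA at 16.9 and PMEL at 10.01.

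Stem-cell and germ-line genes gave a few bright members in lists that stood low. PRAME, a cancer-testis antigen, had an intensity of 8542 (percentile 97.7, with 97.4 to 97.9 over the 3 arrays), while MAGEA4 stood at 15.4. Of the 12 measured germ-line genes 8 were dim (66.7%) and 1 bright (8.33%), against 25.0% of all named genes for each. Among 13 pluripotency genes 5 were dim (38.5%) and 1 was bright (7.69%), SALL4, a zinc-finger factor of embryonic cells, at 77.1. SOX2 stood at 64.2, POU5F1 (OCT4) at 44.6, LIN28B at 28.8, NANOG at 27.2 and the telomerase gene TERT at 1.31. POU5F1 has expressed near-identical copies, so its signal is uncertain. Of 15 surface, efflux and other genes used to define stem-like sarcoma cells, CD24 was the brightest at 90.9 (67.6 to 92.4 over the 3 arrays). KIT was dim at 6.02 (6.02 to 46.2). CXCR4, the chemokine receptor tied to metastasis, stood at 62.8 but ranged from 30.7 to 78.0 over the 3 arrays.

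**Figure D2:**
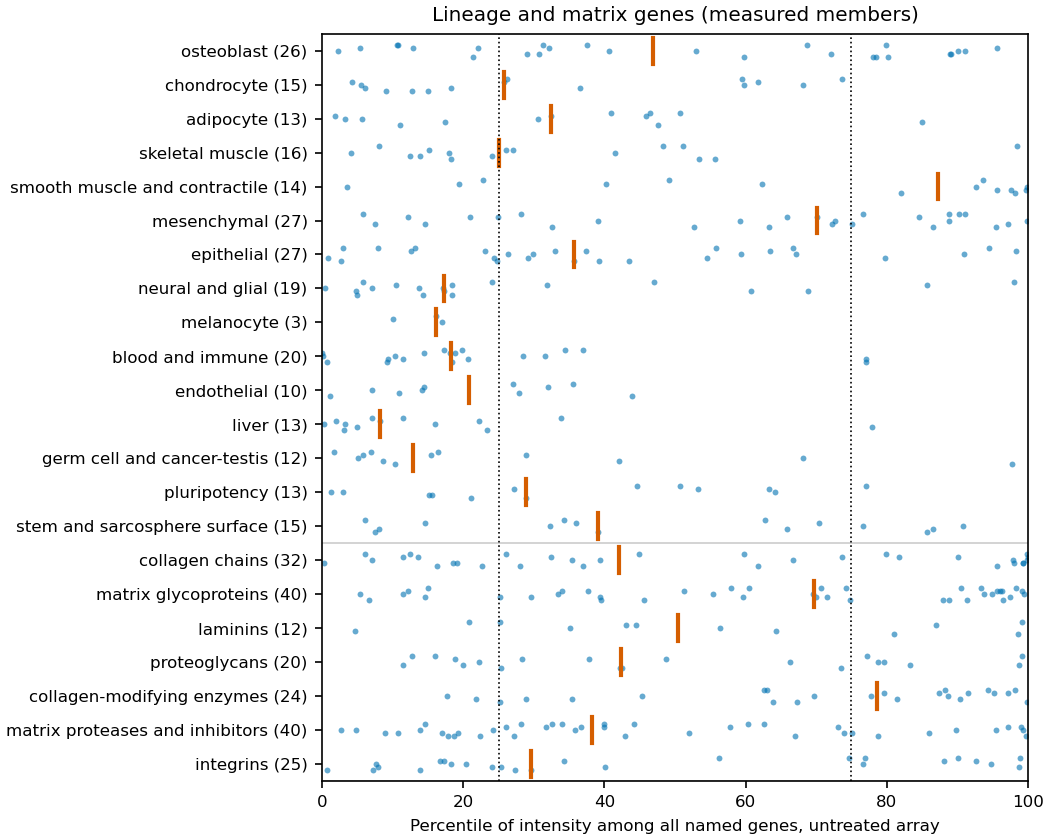
Percentile of intensity on the untreated array (0 dimmest, 100 brightest) for the measured members of each lineage list and, under the grey line, each matrix list, with the number of members in brackets. Each blue point is 1 gene, the orange bar is the list median, and the dotted lines mark percentiles 25 and 75. The contractile, mesenchymal, collagen-modifying and matrix glycoprotein lists have the rightmost medians, and the liver and germ-line lists the leftmost.

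Matrix genes held some of the brightest signals of the array, but not as a class. Of 193 measured members 66 were bright, or 34.2%, against 25.0% of all named genes. Besides the type VI chains, COL5A1 reached 15499 (percentile 99.4), and COL4A2 at 15551 and COL4A1 at 8922 encode the basement membrane collagen. COL3A1, the fibril chain of soft tissue, stood lower at percentile 66.7, and COL12A1 at 81.7 (49.5 to 81.7 over the 3 arrays). COL15A1 was near the lower limit at an intensity of 50.8. In all, 11 of 32 collagen chains were bright (34.4%) and 10 dim (31.25%). None of the 4 transmembrane collagens was above the olfactory receptor limit, against 65.1% of all named genes.

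Adhesive glycoproteins, which link collagen to cells, were led by TNC (tenascin C) at percentile 99.5, TGFBI at 99.2 and fibronectin (FN1) at 98.3. Of 40 measured members 15 were bright (37.5%) and 30 were above the olfactory receptor limit (75%), against 25.0% and 65.1% of all named genes. MFAP4, a microfibril protein, stood at 96.0 but at 73.9 on the lowest of the 3 arrays. Of the laminins, which build basement membrane, LAMB1 at 13764 and LAMC1 at 10773 were brightest, LAMA4 stood at percentile 64.3 and LAMB4 at 4.70. Of 20 proteoglycans 6 were bright and 6 dim (30% for each). BGN (biglycan) at 13680 and AGRN (agrin) at 11276 were the brightest, VCAN (versican) had 117 (percentile 25.3), and ASPN (asporin) was the dimmest at percentile 11.4. HSPG2, the basement membrane perlecan, stood at percentile 66.3, with the cell-surface proteoglycans GPC1 at 83.3 and SDC2 at 77.2.

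Enzymes and chaperones that fold, modify and crosslink collagen were bright in 13 of 24 cases (54.2%), against 25.0% of all named genes. Their median percentile was 78.7. PCOLCE led them, followed by PPIB at 9360 and P3H1 at 7557, which act on proline residues of nascent chains. SERPINH1, the collagen chaperone HSP47, was at percentile 95.2 and P4HB at 88.6. The crosslinking oxidase LOXL2 stood at 87.4 and LOX at 63.9.

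Among matrix proteases the gelatinase MMP2 at 7647 (percentile 97.2) and its membrane activator MMP14 at 5736 (percentile 95.4) were bright. Of the 29 metalloproteinases 3 were bright (10.3%) and 12 dim (41.4%), against 25.0% of all named genes for each. The collagenase MMP1 stood at 60.3, MMP13 at 31.7, MMP9 at 19.3 and MMP7 at 2.69. Their tissue inhibitors stood high, with TIMP2 at 14205 and TIMP1 at 12746. All 7 measured genes of the plasminogen system group exceeded the olfactory receptor limit, against 65.1% of all named genes. SERPINF1 (PEDF), a secreted anti-angiogenic serpin that was counted in this group, was its brightest member at 20349 (percentile 99.7). Its value does not describe plasminogen activation. The activator PLAU stood at 78.7 and its receptor PLAUR at 62.6.

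Integrins, the cell's matrix receptors, were bright for some chains and dim for others, 8 (32%) and 10 (40%) of 25. Of all named genes 25.0% were in each class. The collagen-binding alpha chain ITGA11 reached 11621 and the laminin-binding ITGA3 11065. The common beta chain ITGB1 stood at percentile 94.7, ITGB5 at 92.6, the fibronectin-binding ITGA5 at 90.1 and ITGAV at 74.7. Chains of circulating leukocytes were dim, ITGAM at 0.617 and ITGA4 at 7.20, although ITGA4 reached 38.6 on another array.

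Metabolic genes were bright as a group: 150 of 255 measured members, or 58.8%, against 25.0% of all named genes. Of the 255 members, 226 (88.6%) were above the olfactory receptor limit, against 65.1% of all named genes. In glycolysis 18 of 29 were bright, led by PKM, ALDOA at 25226 and ENO1 at 17783, with GAPDH at 16329. SLC2A1, the basal glucose transporter, stood at percentile 93.4 and LDHA, which makes lactate, at 83.0. SLC2A4, the insulin-responsive transporter of muscle and fat, was dim at an intensity of 58.5. In the tricarboxylic acid cycle 16 of 28 were bright, with citrate synthase (CS) at percentile 97.9, MDH2 at 96.7 and IDH2 at 93.1. In oxidative phosphorylation 45 of 70 were bright, led by UQCRC1 of complex III at 12893, NDUFV1 of complex I and COX4I1 of complex IV at 9402. The ATP synthase subunit ATP5F1B stood at percentile 97.0. ATP5MC2, another subunit of ATP synthase, had 2 features that differed by 3.83 on the log2 scale.

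Biosynthetic pathways were bright too. Of 7 genes of the pentose phosphate pathway and NADPH supply 5 were bright (71.4%), against 25.0% of all named genes. The transketolase TKT stood at percentile 97.7. SHMT2, the mitochondrial serine-to-glycine enzyme, reached 12405 and TYMS, which makes thymidylate, 11663. PHGDH, the first enzyme of serine synthesis, stood at percentile 92.3, MTHFD2 at 77.4, and GLDC, which degrades glycine, was dim at 5.40. Of 26 sterol genes 17 were bright, among them FDPS, which makes farnesyl diphosphate, at 88.5. HMGCS1, an early enzyme of the pathway, stood lower at 55.2. In fatty acid synthesis FASN stood at 96.7, SCD at 94.1 and ACLY at 92.1. Beta-oxidation was not dim beside it: ACADVL had 16623 (percentile 99.6) and HADHA 7958, while the carnitine step enzyme CPT1A stood at 69.6. Of 24 nucleotide synthesis genes 14 were bright, among them IMPDH2 at 89.96 and CAD at 88.7, with RRM2 of ribonucleotide reductase at 58.5. Urea-cycle genes of the liver were dim for OTC at 7.13 and ARG1 at 2.58, but ASS1, which makes argininosuccinate, stood at 93.9 and CPS1 at 64.0.

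Several widely used genes had a sister gene of narrower use, and 16 such pairs were picked with the ranking in view, so their order supports nothing. The widely used member had the higher percentile in all 16, by 9.77 to 91.7 points, with a median of 60.001, although each percentile comes from different probes. The smallest gap was that of the ribosomal proteins RPL10 at 74.6 and RPL10L at 64.8, and both phosphofructokinase genes were bright, PFKP at 99.01 and PFKM at 80.2. Wide gaps were found elsewhere. COX6A1 was at percentile 91.6 and its heart and muscle form COX6A2 at 15.9. Glyceraldehyde-phosphate dehydrogenase had 99.5 for GAPDH and 23.8 for the sperm form GAPDHS. Lactate dehydrogenase had 83.0 for LDHA and 17.9 for the testis form LDHC. Glycogen phosphorylase had 93.2 for the brain form PYGB and 1.52 for the muscle form PYGM. Translation factors gave 1 pair of each order. EIF5A stood at 98.6 and EIF5A2 at 29.6, whereas EEF1A1, the form of most tissues and not among the 16 pairs, stood at 82.4 and EEF1A2, known from muscle and neurons, at 98.6 (96.3 to 98.6 over the 3 arrays). The coding sequences of EEF1A1 and EEF1A2 are alike, and cross-hybridisation was not tested.

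Receptors as a family were bright in 37 of 187 cases, 19.8%, near the 25.0% of all named genes. Of 46 receptor tyrosine kinases 13 were bright (28.3%) and 15 dim (32.6%). The insulin-like growth factor receptor IGF1R led them at 5061 (percentile 94.3), followed by PTK7 at 93.7, EPHB4 at 93.1, ERBB2 at 92.8, RYK at 92.2, AXL at 91.9 and EPHA2 at 91.2. The collagen receptor DDR2 stood at 90.2, FGFR1 at 89.0, PDGFRA at 84.5 and PDGFRB at 72.7. EGFR, at 68.1, rested on 4 features that spanned 2.14 on the log2 scale and is uncertain. KIT, NTRK3 and EPHA7 were dim, NTRK3 at 1.80 and EPHA7 at 2.16. MNNG/HOS is known for a rearrangement that joins TPR to the kinase part of MET. MET stood at 535 (percentile 55.5; 55.5 to 67.5) and TPR at 4177 (percentile 92.5; 89.6 to 92.5). The part of MET that its feature covers is unknown here, so these values do not tell the fusion from the normal transcript.

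The 2 signalling receptors for TGF-beta had places far apart in the ranking, from different probes. TGFBR2, which binds the ligand, had 4216 (percentile 92.6; 88.4 to 92.6), and TGFBR1, which it activates, had 132 (percentile 27.9; 27.9 to 42.3), under the olfactory receptor limit. The BMP receptor BMPR1A was at 61.2 and the endothelial receptor ACVRL1 at 15.98. Of 15 receptors of this family 2 were bright (13.3%) and 5 dim (33.3%), against 25.0% of all named genes for each. The Wnt co-receptors LRP5 at 12256 (percentile 98.97) and LRP6 at 5848 (percentile 95.6) were bright, while no Frizzled receptor was. FZD6 stood highest of them at 64.4, with FZD2 at 63.6 and FZD7 at 59.0, and FZD5 at 12.3 and FZD9 at 1.69 were dim. NOTCH2 stood at 63.6, and the Hedgehog receptor PTCH1 and its partner SMO at 75.1 and 80.3.

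Nuclear receptors were bright in 5 of 40 cases (12.5%) and dim in 12 (30%), against 25.0% of all named genes for each. NR2F2 (COUP-TFII), a mesenchymal orphan receptor, reached 6031 (percentile 95.9), and RARA stood at 78.3. Steroid and vitamin receptors were lower, with the glucocorticoid receptor NR3C1 at 57.8, VDR at 34.7 and ESR1 at 12.5. Cytokine and tumour necrosis factor receptors were bright in 11 of 41 cases (26.8%) and dim in 10 (24.4%). Both shares were near the 25.0% of all named genes. The brightest were IFNGR2 at 11615, TNFRSF12A (the TWEAK receptor) at 7699, TNFRSF1A at 7275 and IL10RA, known from blood cells, at 7237, and the shared chain IL6ST had 2305. Receptors known from lymphocytes did not stand together, with IL7R at percentile 70.3, IL2RB at 54.8, IL2RA at 4.80 and IL21R at 0.374. IFNGR1, the partner of IFNGR2, stood at 56.3, and the death receptor FAS was dim at 1.83 (1.83 to 24.6). Of 24 G-protein-coupled receptors for chemokines, lipids and a few other ligands 2 were bright (8.33%) and 11 dim (45.8%). Neither bright gene encodes a chemokine or lipid receptor: the protease-activated receptor F2RL1 at 87.4 and the adenosine receptor ADORA2B at 77.8. Among lipid receptors LPAR1 stood at 37.9 and S1PR3 at 37.8.

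Secreted ligands were bright in 16 of 100 cases (16%) and dim in 38 (38%), against 25.0% of all named genes for each. A few growth factors were among the brightest genes of the array: TGFB1 at 18595 (percentile 99.7), IGF2, a fetal growth factor, at 16487 (percentile 99.5), HDGF at 8769, MDK (midkine) at 8746 and VEGFA, the angiogenic factor, at 5168. TGFB1 held 99.7 to 99.9 over the 3 arrays. IGF1, the other ligand of IGF1R, was dim at an intensity of 55.1 (percentile 2.79). TGFB2 stood at percentile 36.4 and FGF10 at 1.93. None of the 5 EGF-type ligands was bright, and HBEGF was dim at 12.3. BMP4 stood at 68.8 (46.7 to 86.2 over the 3 arrays), and the BMP antagonist GREM1 at 76.9. Of 21 Wnt ligands and antagonists 9 were dim (42.9%), among them WNT5B at 3.88 and the antagonist DKK1 at 24.4. Above the olfactory receptor limit were 10 of the 21 (47.6%), against 65.1% of all named genes. Cytokines and chemokines were dim in 14 of 24 cases (58.3%) and bright in 4 (16.7%). MIF reached 6877 (percentile 96.7), CLCF1 stood at 88.3 and LIF at 75.2, while the monocyte attractant CCL2 was at 13.0.

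Cell-cycle genes were nearly all above the olfactory receptor limit, 40 of 42 (95.2%), against 65.1% of all named genes. Of the 42, 19 were bright (45.2%), against 25.0%. CCND1 at 5721 (percentile 95.4) and CDK4 at 5563 (percentile 95.2), the cyclin and kinase of G1, stood high. The replication genes MCM7 at 97.2 and PCNA at 88.3 and the mitotic cyclin CCNB1 at 84.7 followed, with MKI67 at 67.0 and CDK1 at 62.8. Among inhibitors of the cycle, CDKN1A (p21) had 4430 (percentile 93.1), and RB1, which holds cells in G1, stood at 49.1. CDKN2A, which encodes p16 and ARF, was dim at 77.5 (percentile 14.6; 1.40 to 14.6). An array value says nothing of mutations in these genes.

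Signal-driven factors were bright in part. IER3 reached 15370, FOSL1 8472 and EGR1 4790, all immediate-early genes, while JUN stood at 57.3 and MYC at 53.3. MYC stood at 76.2 on the highest of the 3 arrays. The mechanosensitive co-activators WWTR1 (TAZ) at 10380.2 (percentile 98.5) and YAP1 at 2499.9 (percentile 86.2) were bright, and their DNA-binding partner TEAD1 stood at 74.5. SMAD3 at 86.9 and SMAD4 at 83.4, which carry TGF-beta signals, stood above SMAD2 at 54.9, and SMAD9 was dim at 2.85. The oxygen-sensing factor HIF1A was at 78.8, EPAS1 (HIF-2 alpha) at 55.7 and HIF3A at 7.57. HES1, a Notch target, had 7066 (percentile 96.8) and HEY1 was at 83.9, but their relatives HEYL and HEY2 were dim at 19.2 and 4.49. The ID genes, known as BMP targets, also spread, with ID2 at 81.1, ID1 at 46.4, ID3 at 35.9 and ID4 at 8.16. Among survival genes MCL1 was at 95.5, BCL2L1 at 65.7 and BCL2 at 24.4. The pro-apoptotic BAX stood at 80.6, from 3 features that spanned 2.06 on the log2 scale.

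Lineage factor families were mostly mid-ranked or dim, with single bright members. Of 18 SOX genes 2 were bright (11.1%, against 25.0% of all named genes), SOX4 at 89.6 and SOX13 at 76.9. Of 23 KLF and SP genes 3 were bright (13.0%), KLF10 at 6369, KLF16 at 5729.96 and KLF6 at 4824. In the GATA, TBX and PAX group TBX15, a skeletal and limb factor, was brightest at 90.3, with TBX3 at 74.6, GATA3 at 73.9, GATA6 at 17.6 and PAX2 at 1.23.

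HOX genes, whose order along each cluster matches the body level at which they act, differed by cluster. In the C cluster 6 of 8 measured genes were bright (75%, against 25.0% of all named genes), with a median percentile of 88.8. HOXC4 stood at 93.0, HOXC6 at 93.0, HOXC10 at 92.0 and HOXC9 at 89.6. In the B cluster 4 of 10 were bright, led by HOXB9 at 5494 (percentile 95.1), and in the A cluster 2 of 10, led by HOXA10 at 83.7. The D cluster had 0 of 6 bright, a median percentile of 25.8, and its highest member, HOXD9, at 53.3. The last paralogue of each cluster was below the median gene, with HOXB13 at 47.7, HOXC13 at 42.1, HOXD13 at 36.6 and HOXA13 at 20.4. None of them was the lowest of its cluster. HOXD13 stood above HOXD8 at 27.4, HOXD4 at 24.2, HOXD3 at 14.4 and HOXD11 at 3.48. HOXC6 had 83.4 to 93.0 over the 3 arrays and HOXC10 had 83.4 to 92.0.

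**Figure D3:**
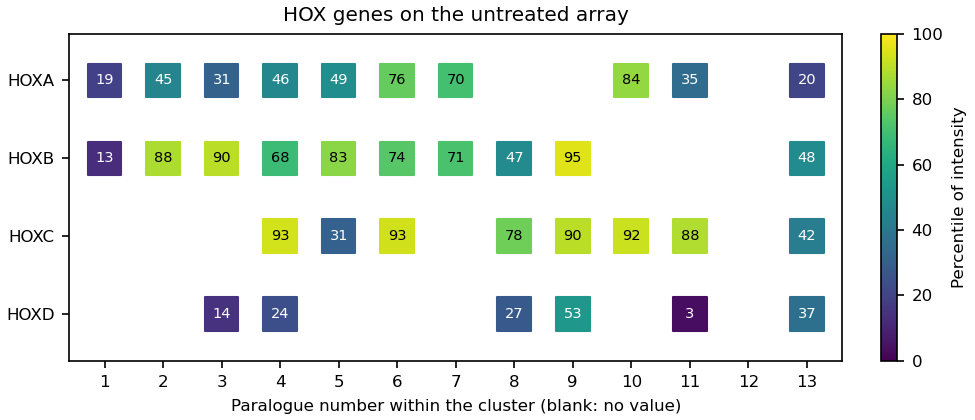
Percentile of intensity on the untreated array for the 34 measured HOX genes, by cluster (rows) and paralogue number (columns); colour and printed number both give the percentile, and a blank is a gene with no value here. The HOXC row is high from paralogue 4 to 11 except HOXC5, the HOXD row is low, and the number 13 genes are below the median gene.

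**Figure D4:**
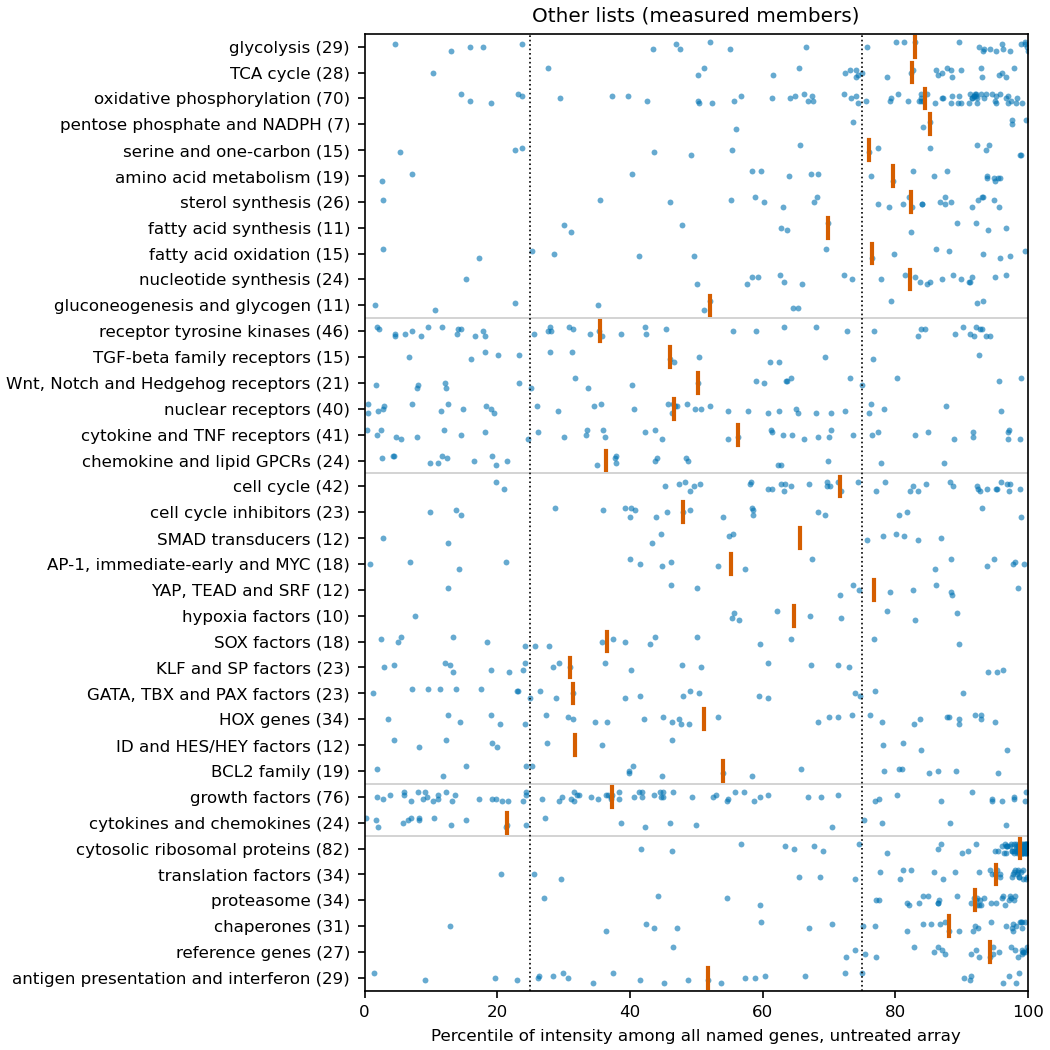
Percentile of intensity on the untreated array (0 dimmest, 100 brightest) for measured members of the metabolic, receptor, regulator, secreted and protein production lists, in blocks parted by grey lines. Each blue point is 1 gene, the orange bar is the list median and the dotted lines mark percentiles 25 and 75. The metabolic and protein production blocks mostly crowd to the right, and receptors and ligands spread over the whole range.

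Genes of protein production and upkeep were the brightest class, with 183 of 234 bright (78.2%), against 25.0% of all named genes. This class also counts the reference genes, 24 of 27 bright, and the antigen presentation and interferon genes, 7 of 29 bright. Of 82 ribosomal proteins 74 were bright, with a median percentile of 98.8, and all 82 were above the olfactory receptor limit. RPL28 at percentile 41.6 and RPL37 at 46.3 were the dimmest. Genes of the translation factor list were bright in 28 of 34 cases, led by EIF3C at 24602, proteasome subunits in 30 of 34 and chaperones in 23 of 31. HSPB1 had 17268, HSP90AB1 13268 and HSPA8 11886, while the endoplasmic reticulum chaperone HSPA5 stood at 67.0 and the mitochondrial HSPD1 at 70.4. The standard proteasome subunit PSMB5 was at 93.4, and the interferon-induced subunits PSMB8 and PSMB9 were at 59.6 and 44.2. B2M, the light chain of MHC class I, had 3788 (percentile 91.5). The class II genes HLA-DRA at 1.40 and CD74 at 9.09 were dim.

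Many genes of translation share a start, a C followed by a run of pyrimidines (C or T), known as a 5′ terminal oligopyrimidine tract. The 12 bases on each side of the annotated start are printed with the run in capitals. They are shown for the 6 brightest ribosomal protein genes with a promoter in the table and for 4 genes of the translation factor list. This list also counts TPT1 and NACA, neither of which is itself a translation factor.
RPL7A: caattccctttcCTTTCTCTCTCC
RPS18: gtcacttccgctCTCTCTTCCaca
RPL13: cctgctatcatcCCagagtgcatt
RPL29: cgcagcccctttCTCTTCCggttc
RPL32: ttacgacccatcagcccttgcgcg
RPL14: cgggtcttcttcCTTCTCgcctaa
EEF2: gacgtcagcgttCTCTTCCgccgt
EEF1A1: gccgtgaacgttCTTTTTCgcaac
TPT1: ggctgagtcggcCTTTTCCgcccg
EEF1G: cccgggcggcttactttgcggcag
RPL13, RPL32 and EEF1G do not have a C with 4 or more pyrimidines after it at this annotated start, and the other 7 do. RPL7A has a run of 16 pyrimidines from its start, of which 12 are shown. Over all ribosomal protein genes with a promoter in the table, 41 of 65 starts (63.1%) had the C and run. The share was 9 of 25 (36.0%) for the translation factor list, 6.20% for the other genes of the brightest decile and 5.00% of all promoters.

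Promoters differed along the ranking in features that the ranking did not use. The table held a promoter, from 250 bases before the start to 50 after it, for 11966 of the named genes (80.7%), and the first listed start was used. The ratio of observed to expected CpG had a median of 0.41 in the dimmest decile of genes and 0.87 in the brightest, with most of the difference reached by the fourth decile at 0.78. Across genes the Spearman correlation of percentile and CpG ratio was 0.347, and 0.0515 among genes above the median; genes are not independent replicates. TATAAA, sought on the gene's strand from 50 to 16 bases before the start, was present in 8.04% of the dimmest decile, 1.29% of the seventh and 2.92% of the brightest, against 3.21% of all. A GC box (GGGCGG or CCGCCC) was present in 38.9% of the dimmest decile and 72.5% of the brightest, against 63.8% of all. CCAAT on either strand showed no such trend, with 37.0% and 38.6%, against 36.7% of all. The CArG box, the SRF motif, was present in 1.25% of all promoters and in 2 of 11 contractile genes with a promoter. The ACTG1 stretch printed above also holds 1. Olfactory receptor promoters had a median CpG ratio of 0.12.

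**Figure D5:**
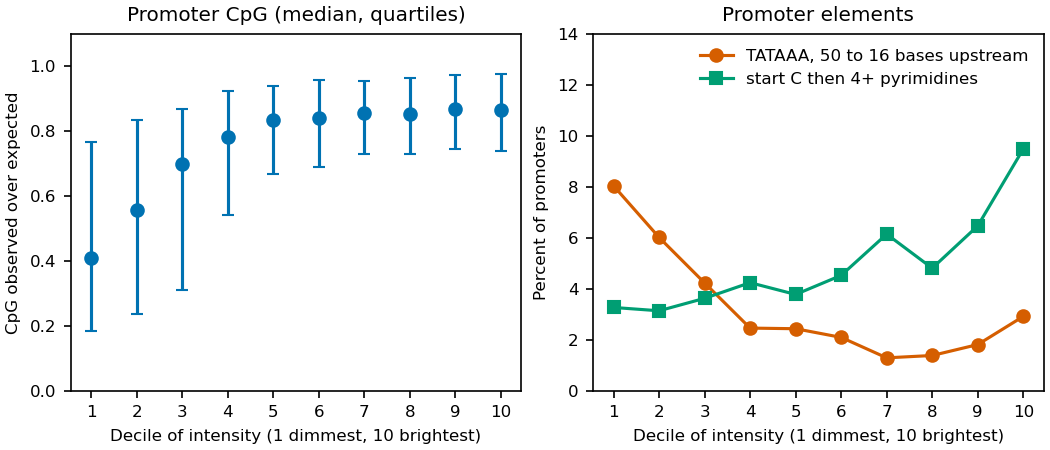
Left, ratio of observed to expected CpG in promoters by decile of intensity on the untreated array (points are medians, bars run between quartiles). Right, percent of promoters with TATAAA 50 to 16 bases before the start (orange circles) and with a start of C and at least 4 pyrimidines (green squares); the CpG ratio levels off after the fourth decile, TATAAA is most frequent in the dimmest decile and the pyrimidine start in the brightest.

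How far a rank depends on the probes was gauged on the 1118 genes with at least 2 features. Their features differed with a median SD of 0.45 on the log2 scale. The first and second feature fell in the same 1 of 4 equal classes of percentile for 62.8% of these genes, and 13 genes had a bright and a dim feature, and their percentiles differed by a median of 7.98. The features of 162 genes spanned over 2 on the log2 scale, and of the genes named here such a span applies to TAGLN, EGFR, BAX and ATP5MC2. The other 13718 genes had 1 feature. The ranking was alike on the other arrays, with Spearman correlations across genes of 0.945 for TGF-beta1 and 0.965 for hypoxia. Of the bright genes, 89.8% and 91.6% were bright there too. Dim genes held their class less often, with 77.8% dim on the TGF-beta1 array and 83.6% on the hypoxia array.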

How the data were processed

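Total RNA of 3 MNNG/HOS sphere cultures was labelled with Cy3 and hybridised to NimbleGen one-colour arrays, per the labels' protocols. Values are the authors' deposited intensities on a linear scale (38572 features by 3 arrays), with medians of 383 (untreated), 363 (TGF-beta1) and 395 (hypoxia). How background, probe summary, normalization and filters were handled is not given in the sources used. No value lies below 50. Listed genes outside the table, COL1A2 and CDH1 among them, are not analysed here.

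Features were named from the platform annotation (15623) or a RefSeq accession (593). The other 22356 were not named. Log2 values, with no pseudocount, were averaged over a gene's features and ranked on the untreated array alone, with Python 3.11.15, numpy 2.4.6, pandas 2.3.3 and matplotlib 3.10.9. The code was tested on simulated data. Lists gave 1400 measured genes in 59 lists. Y-linked genes were left out of the lists. The members and lists were chosen with earlier results of these data known. With 1 array per group, no test was run, and the number of arrays limits the precision.

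The genes named are the 20 brightest, preset lead genes, the 3 brightest of each list and up to 2 of its members under the olfactory receptor median. Some genes that meet this rule are not reported here. ASPN, ATP5MC2, CALD1, DSG2, FZD5, FZD6, HEYL, HOXC5, HOXC13, IFITM3, IL10RA, IL2RB, IL7R, MYL9, RPL28, RPL37, RYK, SNAI1, TPM2, TPR, WNT7B, ZEB2 and the sister-gene pairs were named after their values were seen. Protein features were not run, since no protein table was used here. Alternatives were another summary of features, platform names only, other limits, all features as the ranking set, another listed start, and each of the other arrays.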

Additional observations from a re-analysis of the deposited data

How the results depend on the processing

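No paired analysis was possible because each group has 1 array and no comparison between groups was made. Of the family counts, 1 moved by over 1.5 times: 27 secreted ligands, against 52, were above the limit when it was taken from the other tissue-restricted families, a limit of 488 in place of 188. The number of named genes above the limit ran from 6864 to 10617 over the alternatives, and that of bright metabolic genes from 142 to 165. The CpG difference between the outermost deciles ran from 0.41 to 0.47 and TATAAA in the dimmest decile from 7.36% to 8.04%. Ribosomal protein starts with a pyrimidine run made up 63.1%, or 69.2% at any listed start, an alternative chosen after seeing the data. For single lists, the count above the limit moved by over 1.5 times in 15 lists with the second limit and in 3 with the 99th percentile of olfactory receptors. Over both kinds of list count (bright, and above the limit), 11 moved so on the TGF-beta1 array and 7 on the hypoxia array, and 9 and 4 list medians moved by over 10 percentile points there. Single genes depended more on the array: 350 of the named and listed genes moved by over 10 percentile points on the TGF-beta1 array and 236 on the hypoxia array, against 16 with the brightest feature and 26 with the dimmest. With 1 array per group, treatment and hybridisation cannot be told apart. Order among dim genes near the lower limit of 50 is not resolved.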

Other observations

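Of the 100 brightest features on the untreated array 79 could not be named here. Unnamed features had a median intensity of 353, against 422 for named features, and 62.4% of them were above the olfactory receptor limit, against 65.7%.

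Some bright genes lay outside the main groups. IFITM3, an interferon-induced membrane protein with close copies, had 24707 (percentile 99.9). WNT7B was the 1 bright Wnt ligand, at percentile 86.9 (86.8 to 93.0). The median length of the gene's genomic span was 23.2 kb in the dimmest decile, 34.0 kb in the seventh and 17.3 kb in the brightest.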
